A study of Homo sapiens with 6 samples.

Results

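The 4 mature miRNAs described here are both arms of the paired miR-221 and miR-222 hairpins, hsa-miR-221-3p, hsa-miR-221-5p, hsa-miR-222-3p and hsa-miR-222-5p, chosen by name out of 1596 miRNAs in a small RNA sequencing table of melanoma cells. The tested cells received RSL3, an inhibitor of the lipid peroxide-reducing enzyme GPX4 that triggers ferroptosis, together with the cytokine IFN-γ for 24 h (3 libraries, written RSL3 + IFN-γ), and were set against cells that received RSL3 alone for 24 h (3 libraries, written RSL3). Both groups therefore carried RSL3, and neither untreated cells nor cells given IFN-γ alone were among the libraries analysed, so the comparison addresses what IFN-γ adds to RSL3 and nothing about RSL3 itself. The sample labels name the cells as A2058 while the text of the study names A375; both are established human melanoma lines, and because the dose of RSL3 differed between these lines no dose is given here. Each group is 1 cell line in culture. The labels and the study's text also name different library kits, a small RNA kit in the labels and a directional RNA kit in the text.

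miR-221 and miR-222 are neighbours that are cut from a shared primary transcript, and each hairpin can release a mature miRNA from its 5′ side (5p) and from its 3′ side (3p). The 3p arms are the usual guide strands. They are known in melanoma for repressing KIT, the receptor tyrosine kinase for stem cell factor on which melanocytes depend, and CDKN1B, which encodes the cyclin-dependent kinase inhibitor p27Kip1, and high levels have been tied to proliferation and invasion of melanoma cells. Messenger RNAs were not part of these libraries, so neither target was measured.

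In GRCh38 the MIR221 hairpin lies on the minus strand of chromosome X from 45746157 to 45746266 and MIR222 on the same strand from 45747015 to 45747124. Each is 110 bp long in the GENCODE 29 annotation, with 748 bp between them. Both lie inside the intron, from 45746101 to 45769785, of the MIR222HG transcript that runs from 45745211 to 45770274, so neither hairpin overlaps an exon of that transcript.

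The mature sequences below, from RefSeq on GRCh38.p14, are shown because the seed is what the 3p arms share and the 5p arm does not; capitals mark the seed, bases 2 to 8 from the 5′ end. Entries matched 3 of the 4 miRNAs, and hsa-miR-221-5p is named only.
hsa-miR-221-3p: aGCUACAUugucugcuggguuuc
hsa-miR-222-3p: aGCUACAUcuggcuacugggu
hsa-miR-222-5p: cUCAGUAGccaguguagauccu
hsa-miR-221-3p is 23 bases long and occupies 45746180 to 45746202, hsa-miR-222-3p is 21 bases long at 45747036 to 45747056, and hsa-miR-222-5p is 22 bases long at 45747073 to 45747094. The first 8 bases of the 3p arms are identical, and 18 bases are identical when the arms are aligned end to end. Among the 2370 mature miRNAs of the reference, the seed GCUACAU is found in hsa-miR-221-3p and hsa-miR-222-3p and in no other, and the seed UCAGUAG of hsa-miR-222-5p is found in 0 others. Their mature GC content is 47.8% for hsa-miR-221-3p, 52.4% for hsa-miR-222-3p and 50% for hsa-miR-222-5p. The 3p arms differ in their later bases, and the study's rule for a read that matches several miRNAs was not stated.

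Read counts totalled 4383940, 4404760 and 5367150 in the RSL3 + IFN-γ libraries and 5887471, 4897890 and 6513382 in the RSL3 libraries. The 4 miRNAs took 0.572%, 0.623% and 0.583% of the reads in RSL3 + IFN-γ, against 0.493%, 0.410% and 0.466% in RSL3. Counts were scaled with TMM (trimmed mean of M-values), whose factors ran from 0.944 to 1.33 in RSL3 + IFN-γ and from 0.861 to 0.913 in RSL3, and levels are given as CPM, read counts scaled to the TMM-adjusted size of each library. RSL3 + IFN-γ replicate 1 stood apart from its group: over 473 miRNAs averaging 10 CPM or more, its median absolute log2 difference was 0.474 and 0.383 to the other libraries of its group but 0.337 to RSL3 replicate 2. Values of the 4 miRNAs that rest on it are therefore also given without it. The log2 fold change was related to the GC content of the mature miRNA (Spearman's rho 0.469 across 679 tested miRNAs, which are not independent replicates). No source describes the replicates as separately grown cultures. The p-values therefore refer to variation among the libraries at hand, part or all of which may be technical. In bulk RNA such as this, fewer cells of a type and less RNA per cell cannot be told apart.

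The label of melanoma cells was checked with melanocyte lineage and melanoma miRNAs. The melanocyte lineage miRNA miR-211-5p had 332, 388 and 286 CPM in RSL3 + IFN-γ and 270, 271 and 318 CPM in RSL3. miR-204-5p, which shares its family, had 174, 161 and 173 CPM in RSL3 + IFN-γ, against 238, 276 and 344 CPM in RSL3. Every RSL3 + IFN-γ library was below every RSL3 library for miR-204-5p (log2 fold change −0.75), which missed the threshold with edgeR (adjusted p = 0.075) and was called lower by DESeq2. Groups without overlap, in either direction, were found for 226 of the 758 miRNAs tested, or 29.8%. Of the 6 listed lineage markers, the X-linked miRNAs miR-506-3p, miR-508-3p and miR-509-3p were near 0 and did not enter the test. They were at 0 in 2, 3 and 1 of the libraries, all of them RSL3 + IFN-γ libraries. Their means were 0.0569, 0 and 0.281 CPM in RSL3 + IFN-γ, against 0.563, 1.08 and 1.94 CPM in RSL3. miR-514a-3p of the same cluster fell to 24.3 CPM in RSL3 + IFN-γ, against 63.8 CPM in RSL3 (log2 fold change −1.38, adjusted p = 0.0374, edgeR). That call was lost with the GC trend removed, with library totals in place of TMM factors, with limma on the deposited normalized signal, and without replicate 2 or 3 of RSL3 + IFN-γ or replicate 1 or 3 of RSL3. The summed level of all 6 was 489 to 578 CPM in RSL3 + IFN-γ and 577 to 744 CPM in RSL3. The summed markers of each of 5 other tissues or cell types overlapped between the groups. Blood cell markers summed to 84.1 to 328 CPM in RSL3 + IFN-γ and 101 to 168 CPM in RSL3, and endothelial markers to 323 to 588 CPM in RSL3 + IFN-γ and 532 to 751 CPM in RSL3. Epithelial markers, the lowest, summed to 10.2 to 17.6 CPM in RSL3 + IFN-γ and 16.1 to 30.2 CPM in RSL3. Markers of smooth muscle and fibroblasts summed to 240 to 417 CPM in RSL3 + IFN-γ and 225 to 1040 CPM in RSL3, and those of liver and skeletal muscle to 283 to 452 CPM in RSL3 + IFN-γ and 251 to 1360 CPM in RSL3. Within that last list the liver miRNA miR-122-5p averaged 107 CPM in RSL3 + IFN-γ and 50.2 CPM in RSL3 (adjusted p = 0.180, edgeR), and it passed with the replicate block (adjusted p = 0.0197). The rest of that list went the other way. miR-1-3p averaged 212 CPM in RSL3 + IFN-γ and 542 CPM in RSL3, miR-133a-3p 15 and 27.1 CPM, and miR-206 6.03 and 7.81 CPM. None of those had an adjusted p under 0.201 (edgeR). The part of all these markers in the results was not tested.

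With IFN-γ added to RSL3, the guide strands of both hairpins were measured, on the TMM scale, at nearly the same level as with RSL3 alone. On that scale hsa-miR-221-5p averaged lower and hsa-miR-222-5p averaged higher. None of the 4 passed edgeR's quasi-likelihood test after Benjamini-Hochberg adjustment over the 758 miRNAs tested, all 4 of which entered the test. The background in that test was 36 of 758 miRNAs, or 4.75%, of which 19 rose and 17 fell. That background was itself unsteady: with a replicate block it was 39 up and 43 down, with library totals in place of TMM factors 60 up and 11 down, without RSL3 + IFN-γ replicate 1 it was 45 up and 50 down, and with RSL3 replicate 1 left out edgeR called 0 of 810 (124 at an unadjusted p under 0.05). At an unadjusted p under 0.05, 196 of the 758 and 1 of the 4, hsa-miR-221-5p, passed with edgeR; DESeq2, limma on log2 CPM and limma on the deposited normalized signal also called 0 of the 4 after adjustment.

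**Figure D1:**
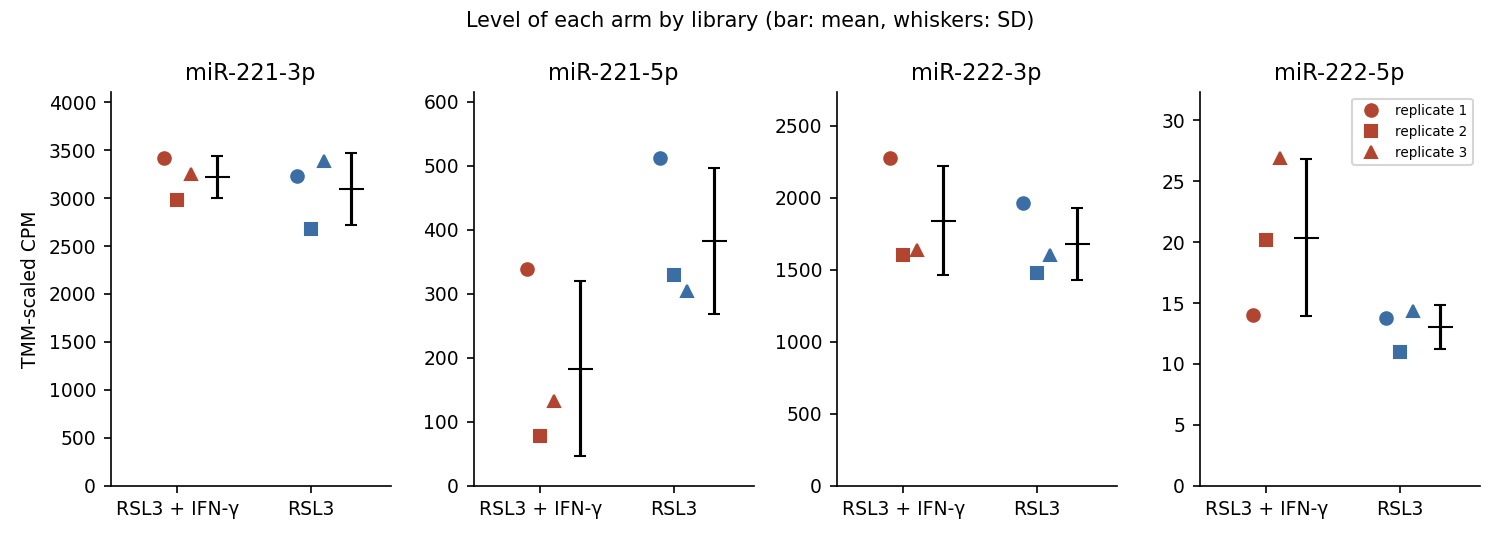
TMM-scaled CPM of each arm on a linear axis from 0, with RSL3 + IFN-γ left of RSL3; each point is a library, its shape gives the replicate number, and the bar and whiskers are the mean and SD of 3 libraries. The 3p arms overlap between the groups, RSL3 + IFN-γ replicates 2 and 3 lie below every RSL3 library for miR-221-5p (78.4 and 132 CPM), and the same libraries lie above every RSL3 library for miR-222-5p (20.2 and 27.0 CPM).

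hsa-miR-221-3p, the guide strand of its hairpin, was the most abundant of the 4, with 14163, 17479 and 20127 reads in RSL3 + IFN-γ and 16399, 11959 and 19349 reads in RSL3. On the CPM scale it had 3422, 2985 and 3248 CPM in RSL3 + IFN-γ, against 3235, 2674 and 3386 CPM in RSL3. The highest library belonged to RSL3 + IFN-γ and the lowest to RSL3, and the groups overlapped. It averaged 3218 ± 220 CPM in RSL3 + IFN-γ and 3098 ± 375 CPM in RSL3 (SD, n = 3 each). The log2 fold change was 0.05 (standard error 0.212, 95% interval −0.41 to 0.52, adjusted p = 0.890, edgeR), a difference smaller than the spread between replicates. Its within-group SD of 0.146 on the log2 scale was low for these libraries: 7.61% of these 473 miRNAs varied less, and their median SD was 0.336.

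hsa-miR-222-3p, which carries the same seed, had 9432, 9397 and 10164 reads in RSL3 + IFN-γ and 9943, 6607 and 9173 reads in RSL3. Scaled, it had 2279, 1605 and 1640 CPM in RSL3 + IFN-γ, against 1961, 1477 and 1605 CPM in RSL3. Replicate 1 was the highest library of each group, and the other libraries of both groups lay close together. It averaged 1841 ± 379 CPM in RSL3 + IFN-γ and 1681 ± 251 CPM in RSL3 (SD, n = 3 each). The log2 fold change was 0.13 (standard error 0.238, 95% interval −0.40 to 0.66, adjusted p = 0.759, edgeR). Same-numbered libraries gave log2 ratios of 0.22, 0.12 and 0.03, and without RSL3 + IFN-γ replicate 1 the log2 fold change was −0.06.

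hsa-miR-221-5p, the opposite strand of the miR-221 hairpin, had 1403, 459 and 819 reads in RSL3 + IFN-γ and 2600, 1476 and 1738 reads in RSL3. It had 339, 78.4 and 132 CPM in RSL3 + IFN-γ, against 513, 330 and 304 CPM in RSL3. RSL3 + IFN-γ replicates 2 and 3 were the lowest libraries of all, while RSL3 + IFN-γ replicate 1 was above RSL3 replicates 2 and 3, so the groups overlapped. The mean was 183 ± 138 CPM in RSL3 + IFN-γ and 382 ± 114 CPM in RSL3 (SD, n = 3 each), a 0.479-fold ratio in the fit (log2 fold change −1.06, standard error 0.464, 95% interval −2.09 to −0.04). This missed the threshold after adjustment (unadjusted p = 0.0436, adjusted p = 0.179, edgeR). It did pass the looser rule of a fold under 0.5 with an unadjusted p under 0.05, which 57 of the 758 miRNAs, or 7.52%, passed.

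The replicate number mattered for hsa-miR-221-5p. Between libraries with the same number, RSL3 + IFN-γ lay below RSL3 in 3 of 3 pairs, with log2 ratios of −0.60, −2.07 and −1.20. With the replicate number as a block, hsa-miR-221-5p passed the threshold (log2 fold change −1.29, standard error 0.301, adjusted p = 0.0416, edgeR) and was the 1 of the 4 that did. In that fit 43 of the 758 miRNAs, or 5.67%, were called lower. Without RSL3 + IFN-γ replicate 1 the log2 fold change was −1.88 (adjusted p = 0.00545), and without any other single library it was −0.71 to −1.23 and did not pass. With a GC trend removed, using the GC content of the hairpin side, it was −0.95 (adjusted p = 0.231, edgeR), and −1.15 (adjusted p = 0.0656, edgeR) with the block as well. This correction was chosen after the data were seen. Both miR-221 arms have the same hairpin-side GC content (46.9%), so it cannot tell them apart. Name matching also gave the miR-22 arms the MIR221 hairpin. A correction by the mature GC content of hsa-miR-221-5p was not tested. The within-group SD of hsa-miR-221-5p, 0.805 on the log2 scale, exceeded that of 96% of the 473 miRNAs.

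hsa-miR-222-5p, the opposite strand of the miR-222 hairpin, was the rarest of the 4, with 58, 118 and 167 reads in RSL3 + IFN-γ and 70, 49 and 82 reads in RSL3. It had 14.0, 20.2 and 27.0 CPM in RSL3 + IFN-γ, against 13.8, 11.0 and 14.4 CPM in RSL3. Replicates 2 and 3 of RSL3 + IFN-γ were above every RSL3 library, and replicate 1 lay within the RSL3 range. The mean was 20.4 ± 6.47 CPM in RSL3 + IFN-γ and 13.0 ± 1.82 CPM in RSL3 (SD, n = 3 each). The log2 fold change was 0.65 (standard error 0.314, 95% interval −0.05 to 1.34, adjusted p = 0.223, edgeR). Without RSL3 + IFN-γ replicate 1 it was 0.84 (adjusted p = 0.103, edgeR). Same-numbered libraries gave log2 ratios of 0.02, 0.88 and 0.91. As a share of all reads it was 0.00132% to 0.00311% in RSL3 + IFN-γ and 0.00100% to 0.00126% in RSL3. The exact 95% interval of the lowest RSL3 + IFN-γ share, 0.00101% to 0.00171%, overlapped that of the highest RSL3 share, 0.00100% to 0.00156%; these intervals cover counting error only, since the reads carried no stated molecular identifiers.

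The order of the levels was the same in all 6 libraries: hsa-miR-221-3p above hsa-miR-222-3p, then hsa-miR-221-5p, then hsa-miR-222-5p. By reads, hsa-miR-221-3p ranked 38 to 41 among the 1596 miRNAs in RSL3 + IFN-γ and 42 to 45 in RSL3. hsa-miR-222-3p ranked 53 to 61 in RSL3 + IFN-γ and 54 to 61 in RSL3. The 5p arms moved over wider ranges, hsa-miR-221-5p ranking 122 to 217 in RSL3 + IFN-γ and 102 to 132 in RSL3, and hsa-miR-222-5p 332 to 411 in RSL3 + IFN-γ and 417 to 452 in RSL3. These ranks compare reads per mature miRNA, which are of nearly equal length, and how efficiently each sequence enters a library was not measured. The ranges of neighbours in this order did not overlap on the CPM scale in either group.

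The ratio of the 3p to the 5p arm is taken inside a library and needs no scaling between libraries. The miR-221 hairpin gave 10.1, 38.1 and 24.6 3p reads per 5p read in RSL3 + IFN-γ, against 6.31, 8.10 and 11.1 in RSL3. In percent, the 5p arm made up 9.01%, 2.56% and 3.91% of the hairpin's reads in RSL3 + IFN-γ and 13.7%, 11.0% and 8.24% in RSL3. RSL3 + IFN-γ replicates 2 and 3 had the smallest 5p shares, and replicate 1 (exact 95% interval 8.57% to 9.47%) lay above RSL3 replicate 3 (7.87% to 8.62%). The log2 ratio averaged 4.40 ± 0.976 in RSL3 + IFN-γ and 3.05 ± 0.411 in RSL3 (SD, n = 3 each). The change was 1.35 (standard error 0.524, 95% interval 0.15 to 2.55, unadjusted p = 0.0312, adjusted p = 0.230, limma). Without RSL3 + IFN-γ replicate 1 it was 1.88 (adjusted p = 0.0968, limma).

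**Figure D2:**
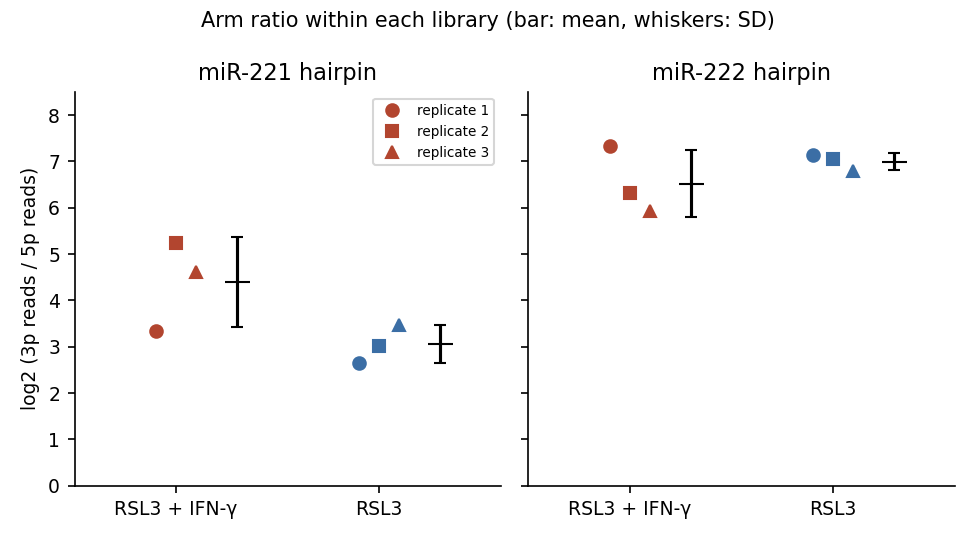
Log2 of 3p over 5p reads in each library for the miR-221 hairpin and the miR-222 hairpin on a shared axis from 0, RSL3 + IFN-γ left of RSL3; shapes give the replicate number, bars the mean and whiskers the SD of 3 libraries. In RSL3 + IFN-γ the hairpins lie closer together (means 4.40 and 6.52) than in RSL3 (means 3.05 and 7.00).

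The miR-222 hairpin was far more skewed to its 3p arm. Its 5p arm made up 0.611%, 1.24% and 1.62% of the hairpin's reads in RSL3 + IFN-γ, against 0.699%, 0.736% and 0.886% in RSL3. Replicates 2 and 3 of RSL3 + IFN-γ had the largest shares and replicate 1 the smallest, so here too the groups overlapped. The log2 ratio averaged 6.52 ± 0.729 in RSL3 + IFN-γ and 7.00 ± 0.180 in RSL3 (SD, n = 3 each). The change was −0.48 (standard error 0.433, 95% interval −1.46 to 0.51, adjusted p = 0.566, limma). Without RSL3 + IFN-γ replicate 1 it was −0.88 (adjusted p = 0.287, limma).

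Over the 181 hairpins whose arms both averaged 10 reads or more, limma called 0 arm ratios after adjustment, a background of 0%, and 35 at an unadjusted p under 0.05. Of those 35, 23 (12.7% of the 181) had a higher 3p share and 12 a lower one, and miR-221 was among the 23. Arm ratios in general ran slightly to the 3p side, with a median change of 0.13 on the log2 scale and 56.4% of changes above 0. The change at miR-221 ranked 14 from the 3p end of the 181 and that at miR-222 ranked 146. With 5 reads added to each arm, limma called 5 of 181 hairpins, and with at least 50 reads of each arm it called 4 of 103, in neither case miR-221 or miR-222. No other tool was run on arm ratios.

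**Figure D3:**
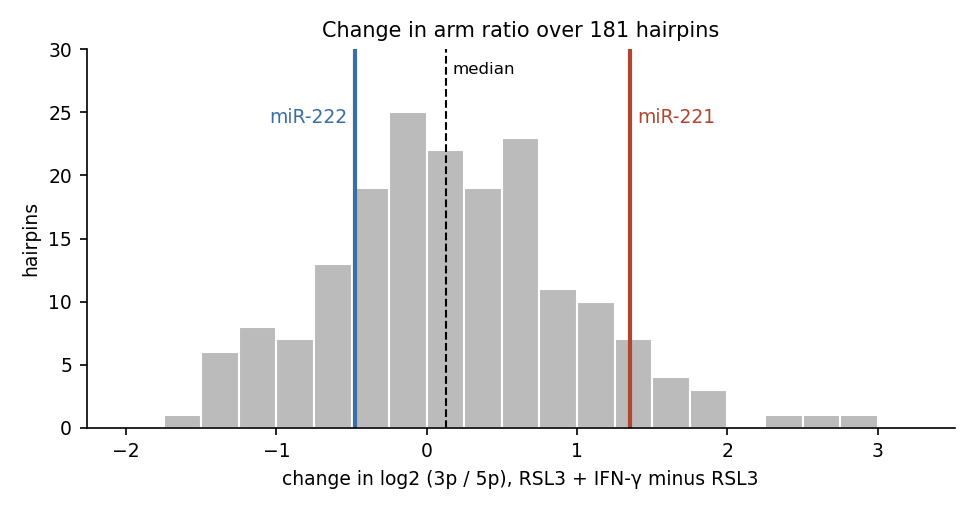
Distribution over 181 hairpins of the change in log2 (3p / 5p), RSL3 + IFN-γ minus RSL3; the height of a bar is the number of hairpins, the dashed line is the median (0.13) and the coloured lines mark miR-221 (1.35) and miR-222 (−0.48). The 2 hairpins lie on opposite sides of the median, miR-221 in the upper tail and miR-222 within the bulk.

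The hairpins of this neighbouring pair thus had arm ratios that moved in opposite directions in the means. The difference between their changes was 1.83 on the log2 scale (exact permutation test over the 6 libraries, two-sided p = 0.2), where the smallest p that 3 libraries against 3 can give is 0.1, so this design could not have passed 0.05. Without RSL3 + IFN-γ replicate 1 the difference was 2.77, and without any other single library it was 1.30 to 2.14.

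Between the hairpins, the guide strands kept a similar proportion. hsa-miR-222-3p reads per hsa-miR-221-3p read were 0.666, 0.538 and 0.505 in RSL3 + IFN-γ, against 0.606, 0.553 and 0.474 in RSL3. The groups interleaved, with replicate 1 highest and replicate 3 lowest in each, and the difference was 0.06 on the log2 scale (exact permutation p = 0.7, two-sided). It was −0.06 without RSL3 + IFN-γ replicate 1 and −0.03 without RSL3 replicate 3. hsa-miR-222-5p reads per hsa-miR-221-5p read were 0.0417, 0.258 and 0.204 in RSL3 + IFN-γ, against 0.0271, 0.0335 and 0.0475 in RSL3. RSL3 + IFN-γ replicates 2 and 3 stood well above the other 4 libraries, and replicate 1 lay inside the RSL3 range. The difference was 1.89 on the log2 scale (exact permutation p = 0.2, two-sided). It was 2.71 without RSL3 + IFN-γ replicate 1 and 1.396 to 2.108 without any other single library.

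The summed level of the 4 miRNAs was 6053, 4688 and 5047 CPM in RSL3 + IFN-γ and 5723, 4492 and 5309 CPM in RSL3. Replicate 1 was highest and replicate 2 lowest in each group. The difference was 0.02 on the log2 scale (exact permutation p = 0.9, two-sided). Its sign turned with upper-quartile factors (−0.08), and without RSL3 + IFN-γ replicate 1 or RSL3 replicate 2 (each −0.09). With library totals in place of TMM factors, the median of all tested miRNAs stood at 0.33 in place of −0.04, and the summed level differed by 0.38. On the deposited signal, limma gave 0.50 for hsa-miR-221-3p (adjusted p = 0.177) and 0.56 for hsa-miR-222-3p (adjusted p = 0.131). The median of all tested miRNAs was 0.36 there. Directions of the 3p arms are therefore relative to the TMM scale.

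**Figure D4:**
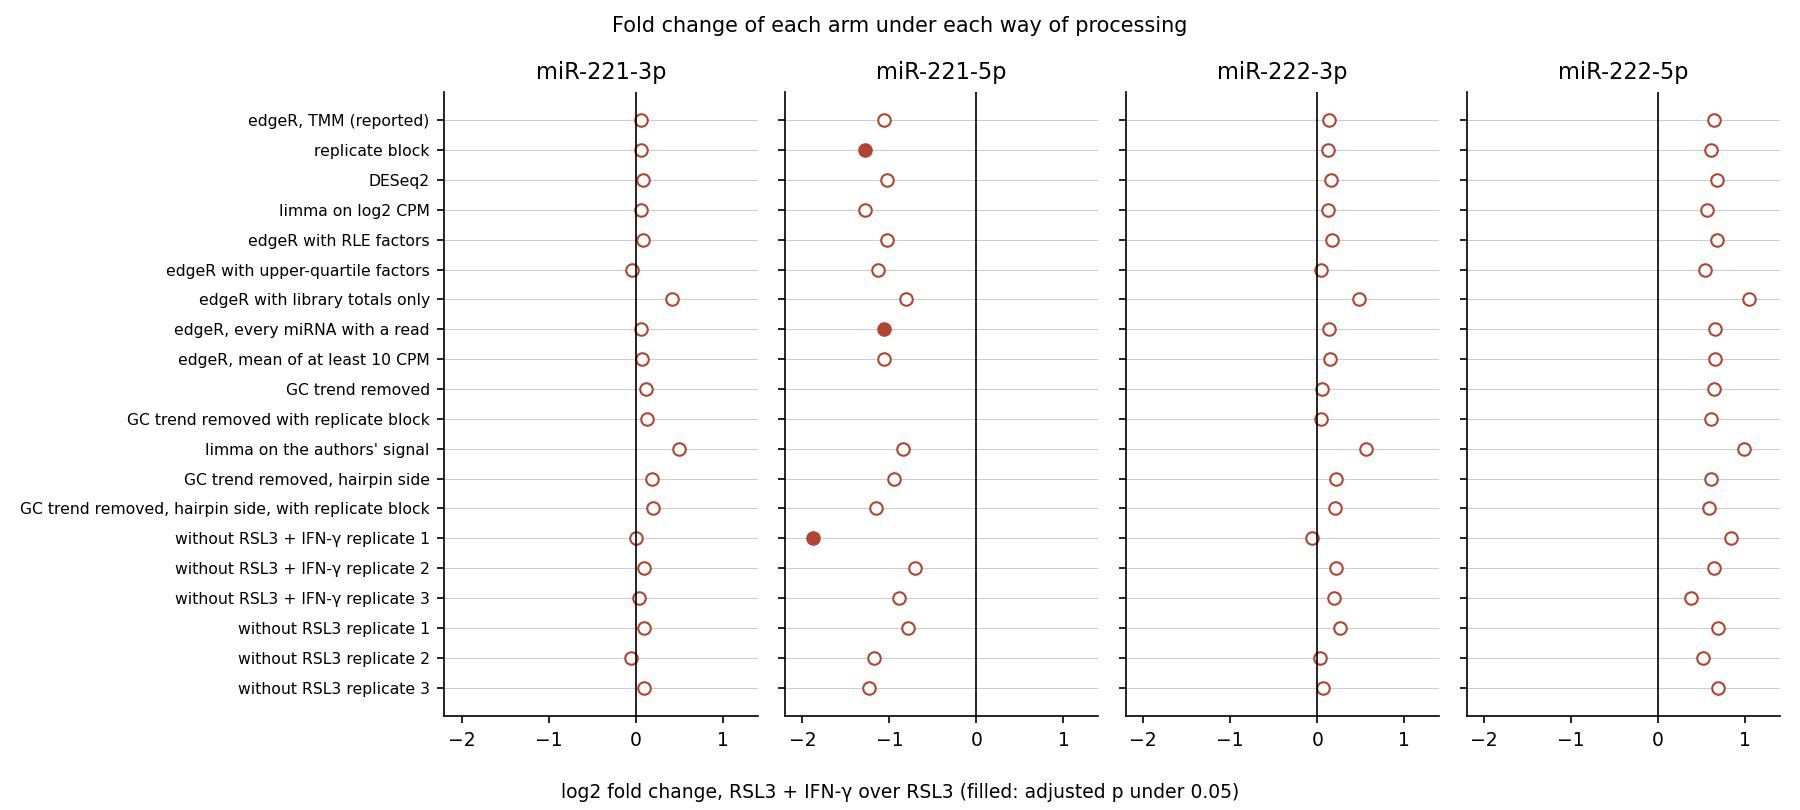
Log2 fold change of RSL3 + IFN-γ over RSL3 for each arm (a panel each) under each way of processing, from the TMM fit at the top to the fits without a single library at the bottom; filled points had an adjusted p under 0.05. The miR-221-5p points all lie below 0 (from −1.88 to −0.71) with 3 filled, the miR-222-5p points all lie above 0 (from 0.38 to 1.04) with none filled, and the 3p arms lie near 0, up to 0.56, with none filled.

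Each arm followed other miRNAs more closely than it followed its partner. The measure was Pearson's r of log2 CPM over the 6 libraries against 472 other miRNAs, given as a description, since the libraries share depth, scaling and treatment. The miRNA closest to hsa-miR-221-3p was miR-29a-3p (r = 0.941), followed by miR-520a-5p (0.915) and let-7a-3p (0.914), while hsa-miR-222-3p came at rank 27 (0.652). The miRNA closest to hsa-miR-221-5p was miR-19a-3p (r = 0.997), a member of the miR-17-92 cluster, followed by miR-330-3p (0.988) and miR-361-3p (0.986). miR-19a-3p had 235, 41.7 and 84.1 CPM in RSL3 + IFN-γ, against 403, 240 and 247 CPM in RSL3, with RSL3 replicate 1 highest and RSL3 + IFN-γ replicates 2 and 3 lowest, as for hsa-miR-221-5p. Its adjusted p was 0.148 (edgeR). The r of hsa-miR-221-5p with its own 3p arm was 0.169 and with hsa-miR-222-5p −0.773.

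For hsa-miR-222-3p the closest were miR-4521 (r = 0.925), miR-31-3p (0.916) and miR-6501-5p (0.867), and its r with hsa-miR-222-5p was −0.127. For hsa-miR-222-5p they were miR-1271-5p (r = 0.968), miR-671-3p (0.943) and miR-9985 (0.922). miR-1271-5p had 10.2, 12.6 and 22.3 CPM in RSL3 + IFN-γ, against 9.86, 7.83 and 11.0 CPM in RSL3, again with replicate 3 of RSL3 + IFN-γ highest. None of these 12 neighbours passed the adjusted threshold.

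Other miRNAs reported to target the same genes gave a background for the pair. Of 6 listed miRNAs reported to target KIT, all tested, 1 rose, 0 fell and the median log2 fold change was −0.06. The miRNA that rose was miR-193a-3p, with 19.1, 28.5 and 27.8 CPM in RSL3 + IFN-γ and 6.71, 13.2 and 9.10 CPM in RSL3. Every RSL3 + IFN-γ library was above every RSL3 library. Such separation, in either direction, was found for 226 of the 758 miRNAs tested, or 29.8%, and is not particular to the listed miRNAs. The log2 fold change of miR-193a-3p was 1.38 (standard error 0.330, adjusted p = 0.0405, edgeR). The call was lost with upper-quartile factors (adjusted p = 0.0529), with the GC trend removed (0.058), and without RSL3 + IFN-γ replicate 2 (0.121) or 3 (0.107) or RSL3 replicate 1 (0.206) or 3 (0.0981).

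Its relative miR-193b-3p had 1315, 1074 and 1312 CPM in RSL3 + IFN-γ, against 609, 857 and 542 CPM in RSL3, also without overlap, and missed the threshold (log2 fold change 0.88, adjusted p = 0.0648, edgeR). It was called higher by DESeq2, with library totals, when every miRNA with a read or those averaging 10 CPM or more were tested, with limma on the deposited signal, and without RSL3 replicate 2, which made 2 of the KIT list higher in each of these settings. Of the rest of the KIT list, miR-34a-5p, a transcriptional target of p53, had a log2 fold change of −0.46, miR-218-5p −0.55, miR-494-3p −0.98 and miR-137-3p 0.35, none with an adjusted p under 0.237.

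Of 5 listed miRNAs reported to target CDKN1B, all tested, edgeR called 0, with 2 at an unadjusted p under 0.05 and a median log2 fold change of 0.19. At that unadjusted threshold 2 of the 6 in the KIT list and 196 of all 758 tested miRNAs passed. DESeq2 and limma on log2 CPM also called 0 of the CDKN1B list. miR-181a-5p had 11320, 5667 and 6049 CPM in RSL3 + IFN-γ and 4183, 5013 and 3763 CPM in RSL3, with every RSL3 + IFN-γ library above every RSL3 library (log2 fold change 0.83, adjusted p = 0.120, edgeR). It was called with library totals in place of TMM factors, when every miRNA with a read was tested, and with limma on the deposited signal. Those settings called 60, 50 and 63 miRNAs higher and 11, 56 and 9 lower over all tested. miR-148a-3p, the most abundant of the list, had 17380, 27630 and 25630 CPM in RSL3 + IFN-γ and 39990, 29100 and 36200 CPM in RSL3, again without overlap and in the other direction (log2 fold change −0.58, adjusted p = 0.179, edgeR). The log2 fold changes of miR-24-3p (0.19), miR-196a-5p (−0.20) and miR-152-3p (0.22) were smaller. Over both lists 1 of 11 rose and 0 fell, against 19 that rose and 17 that fell among all 758 tested miRNAs, whose median log2 fold change was −0.04.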

How the data were processed

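Small RNA of 6 libraries of melanoma cells, 3 per treatment group as given by the labels, was analysed. In the submitters' processing notes, GRCh38 is the build and edgeR, Bowtie 1.1.1 and bcl2fastq are the tools. The miRBase release, the alignment settings and the treatment of ambiguous reads were not given in the sources used here. What the authors deposited is a table with raw read counts per mature miRNA and a normalized signal per library; the deposited signal was used only as an alternative. The authors' log2 fold change, linear fold ratio and p-value per miRNA, also deposited, were not used.

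edgeR 4.0.16 under R 4.3.3 was used on the counts (two-sided quasi-likelihood test with TMM factors). Its low-count filter (10 reads at least, 15 in total) kept 758 of 1596 miRNAs, with Benjamini-Hochberg adjustment over all of them and a threshold of 0.05. Arm ratios, log2 of 3p over 5p reads with 0.5 added to each, were tested with limma 3.58.1 for hairpins whose arms both averaged 10 reads or more. Single values were tested by exact permutation over the 6 libraries. Intervals of shares are Clopper-Pearson. The edgeR and arm ratio tests were checked on simulated data. Alternatives were DESeq2 1.42.0, limma on log2 CPM with a pseudocount of 1, limma on the deposited signal, other scaling factors, other filters, a loess GC correction (span 0.75), the replicate block and leaving out each library; the GC correction by hairpin side was added after the data were seen.

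Both groups share replicate numbers whose meaning is not stated. Across groups, libraries of the same number deviated from their group means together, with correlations of 0.249, 0.233 and 0.224 over 758 miRNAs. Each was above the bound of 0.1 taken as pairing, and correlations between different numbers were not calculated. By median absolute log2 difference, RSL3 + IFN-γ replicates 1, 2 and 3 were all nearest to RSL3 replicate 2 (0.337, 0.491 and 0.44). These distances keep the difference between the groups, so they cannot decide whether the numbers pair the libraries. With no stated meaning of the numbers, pairing is not settled. The main tests, permutation tests included, did not use the numbers, and blocked values are given where they change a call.

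Named miRNAs are the 4 arms, the members of the KIT, CDKN1B and marker lists, and the 3 miRNAs closest to each arm by Pearson's r; hairpins with the largest called arm ratio changes and miRNAs sharing a seed were also to be named, and none beyond the 4 arms met either. Members and lists were chosen with earlier results of these data known. RefSeq mature entries matched 1425 of the 1596 miRNAs by name.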

Additional observations from a re-analysis of the deposited data

How the results depend on the processing

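The sign of hsa-miR-221-5p, hsa-miR-222-5p and both arm ratio changes held under every alternative run; the mature-sequence GC correction gave no value for hsa-miR-221-5p or the miR-221 arm ratio. hsa-miR-221-5p passed the threshold with the replicate block (−1.29, adjusted p = 0.0416, edgeR) and when every miRNA with a read was tested (−1.06, adjusted p = 0.0112), each time with 1 of the 4 miRNAs called; the block changed no other call among the 4, and the cause was not tested. Upper-quartile factors gave −0.039 for hsa-miR-221-3p and −0.079 for the summed level. With library totals hsa-miR-221-3p stood at 0.42, hsa-miR-222-3p at 0.48, hsa-miR-221-5p at −0.81 and hsa-miR-222-5p at 1.04 (adjusted p = 0.0849). Leaving out each library in turn gave −0.056 to 0.099 for hsa-miR-221-3p, −1.88 to −0.71 for hsa-miR-221-5p, −0.063 to 0.261 for hsa-miR-222-3p, 0.38 to 0.84 for hsa-miR-222-5p, 0.93 to 1.88 and −0.88 to −0.18 for the miR-221 and miR-222 arm ratios, −0.056 to 0.144 for the ratio of the 3p arms, 1.396 to 2.711 for that of the 5p arms, −0.091 to 0.105 for the summed level, and 0 to 1 of the 4 called. Over all miRNAs, 19 rose and 17 fell; the counts were 39 and 43 with the block, 52 and 43 with DESeq2, 60 and 11 with library totals, 50 and 56 with every miRNA, 28 and 21 above 10 CPM, 9 and 4 with the GC trend removed (8 and 3 with the block), 14 and 3 by hairpin side (13 and 6 with the block), 63 and 9 with the deposited signal, 15 and 24 with upper-quartile factors, and 0 and 0 (without RSL3 replicate 1) to 45 and 50 (without RSL3 + IFN-γ replicate 1) with a library left out. With 49 to 167 reads a library, hsa-miR-222-5p has the least depth behind it.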
